A study of Macaca mulatta with 52 samples.

Results

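The genes described here encode the proteins of the mitochondrial ribosome and were measured in rhesus macaque (Macaca mulatta) embryos between the 8-cell stage and the expanded blastocyst. Members were all genes of the count table whose symbol begins with MRPL or MRPS and a number, the standard prefixes for mitochondrial ribosomal proteins of the large and small subunit. The rule found 46 of 26309 gene identifiers, 34 with the MRPL prefix and 12 with the MRPS prefix. Names were available for 15078 identifiers, and the RefSeq gene table lists 77 distinct protein-coding symbols of this form, so the 46 are the named part of the family and not all of it. MRPL12, MRPL58, MRPS7 and MRPS12 are among the family members without a named identifier here, and no value is given for them.

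Mitochondria carry their own ribosome, which translates the few proteins encoded by mitochondrial DNA, all of them parts of the oxidative phosphorylation complexes. The RNAs of this ribosome are transcribed inside the organelle, whereas every one of its proteins is encoded in the nucleus, made in the cytoplasm and imported. Some of the proteins have counterparts in bacterial ribosomes and others exist only in mitochondrial ribosomes. The early embryo inherits its mitochondria and their ribosomes from the oocyte, and primate embryos begin large-scale transcription of their own genome around the 8-cell stage. MRPS30 and MRPS18A carry the MRPS prefix but sit in the large subunit. By position, therefore, 36 members belonged to the large subunit, 21 of them with a bacterial counterpart and 15 without. In the small subunit there were 10, 4 with a bacterial counterpart and 6 without. MRPS18A and MRPS18B are related to bacterial S18 but sit at other sites, and were counted as without a counterpart.

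Each sample was RNA of an in vitro fertilised rhesus embryo whose oocyte came from a female stimulated with FSH and hCG, and embryos were cultured in HECM-9 medium, later with calf serum. The protocol names culture with or without relaxin, but the labels do not say which embryo received it, so relaxin could not be separated from any group below. Libraries were made with 2 commercial kits, SPIA (Ovation RNA-Seq System v2, which amplifies cDNA before fragmentation) and SoLo (Ovation SoLo, which depletes ribosomal RNA after library construction). Of the SPIA libraries, 9 came from 8-cell embryos, 11 from morulas, 14 from expanded blastocysts and 2 from blastocysts labelled delayed. Of the SoLo libraries, 4, 3 and 6 came from the first 3 of these stages. The SoLo libraries were made from embryos that also gave SPIA libraries, 11 of them known individually by title, so the kits are not independent. Embryos carry a 6-digit code in their titles, and the codes follow the stages: 020816 is the only code with both 8-cell embryos and morulas. Title code and stage therefore cannot be told apart in most comparisons. In a whole embryo, fewer cells of a type and less RNA per cell also cannot be told apart.

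SPIA libraries held 0.601 to 21.0 M counts and SoLo libraries 5.70 to 10.6 M counts (M for mega). In SPIA the depth followed the stage, with medians of 13.8 M counts in 8-cell embryos, 8.06 M in morulas and 6.57 M in expanded blastocysts. The 3 markers of the 8-cell stage (ZSCAN4, LEUTX and TPRX1) summed to 197 to 575 counts-per-million (CPM) in the SPIA 8-cell libraries and to a median of 11.7 CPM in the morulas. One morula library, 022916_02, held 582 CPM of these markers, above every SPIA 8-cell library. Listed markers with a named identifier were ZP1, ZP2, ZP3 and MOS for oocyte and POU5F1 and NANOG for epiblast. For trophectoderm they were GATA2, GATA3, TFAP2C and KRT18, and for primitive endoderm GATA4, GATA6 and PDGFRA. GATA4 reached at most 10.4 CPM in SPIA morulas, whereas GATA6 and PDGFRA already had SPIA 8-cell medians of 105 and 208 CPM. Markers of oocyte, trophectoderm and primitive endoderm were also highest in 022916_02 among the SPIA morulas. They summed to 291, 468 and 1102 CPM against group medians of 24.2, 130 and 586. Its epiblast markers summed to 30.0 CPM, below the group median of 111. The 8-cell library 020816_09 also stood apart: oocyte markers summed to 1885 CPM against a group median of 314, and 21 of the 44 measurable members were under 1 CPM against a group median of 6. Both libraries were kept under their labels, and counts and calls that rest on them are given with and without them. Markers of cumulus and granulosa cells, 11 of 14 of which had a named identifier, differed with stage: their sum ranged from 4.47 to 1617 CPM in SPIA 8-cell libraries, from 4.08 to 75.9 CPM in morulas and from 3.35 to 54.6 CPM in expanded blastocysts. In SoLo the ranges were 21.2 to 2267, 12.9 to 98.3 and 49.9 to 146 CPM. Of these 11, VCAN, INHA, CYP19A1, FSHR and AREG had medians of 0 to 3.06 CPM in SPIA morulas and expanded blastocysts. CYP11A1, on the same list, went the other way, with SPIA medians of 0.235, 2.65 and 13.2 CPM in 8-cell embryos, morulas and expanded blastocysts and SoLo medians of 20.5, 12.8 and 63.9 CPM. The 8-cell embryos 020816_06, 020816_07 and 112815_02 were highest for the cumulus list among those with libraries in both kits, and counts without them are given beside the main ones; the part of cumulus RNA in single values was not tested. Among the 3 SoLo morulas, 022916_01 stood apart in trophectoderm markers, which summed to 1280 CPM there, to 176 and 245 CPM in the other 2 and to 1452 to 2412 CPM in the SoLo expanded blastocysts.

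Values below are CPM after TMM scaling, which corrects the total of each library for a few very abundant genes. The scale allows a gene to be compared between libraries but not with another gene. The factors were set within each kit, so these values compare libraries of the same kit, and the values that compare the kits further below are CPM scaled together over both. Of the 46 members, 44 passed the filter on low counts in both kits. MRPS21 and MRPS34, both small-subunit proteins, had 0 counts in all 49 libraries, which allows up to 3 counts in each. The summed CPM of the members had medians of 1702 in SPIA 8-cell embryos (range 1101 to 2492), 2063 in morulas (1168 to 3095), 1797 in expanded blastocysts (1411 to 3021), and was 1581 and 1678 in the delayed blastocysts. All these SPIA ranges overlap. In SoLo the sums were 2079 to 2771 at the 8-cell stage, 3034 to 3731 in morulas and 2568 to 3711 in expanded blastocysts. In scaled CPM the SoLo morulas thus lay above the SoLo 8-cell embryos, but as an unscaled share of all counts they overlapped, with 0.255% to 0.297% at the 8-cell stage and 0.264% (022916_01), 0.359% and 0.377% in the morulas. As an unscaled share of all counts, the members made up medians of 0.221%, 0.214% and 0.152% in the SPIA 8-cell, morula and expanded libraries, so the order of the SPIA stages depends on the scaling. In the SPIA 8-cell library 020816_09 the large-subunit genes summed to 782 CPM, below the group median of 1217, and the small-subunit genes to 1558 CPM, above the group median of 450.1, with 1506 CPM from MRPS31 alone.

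**Figure D1:**
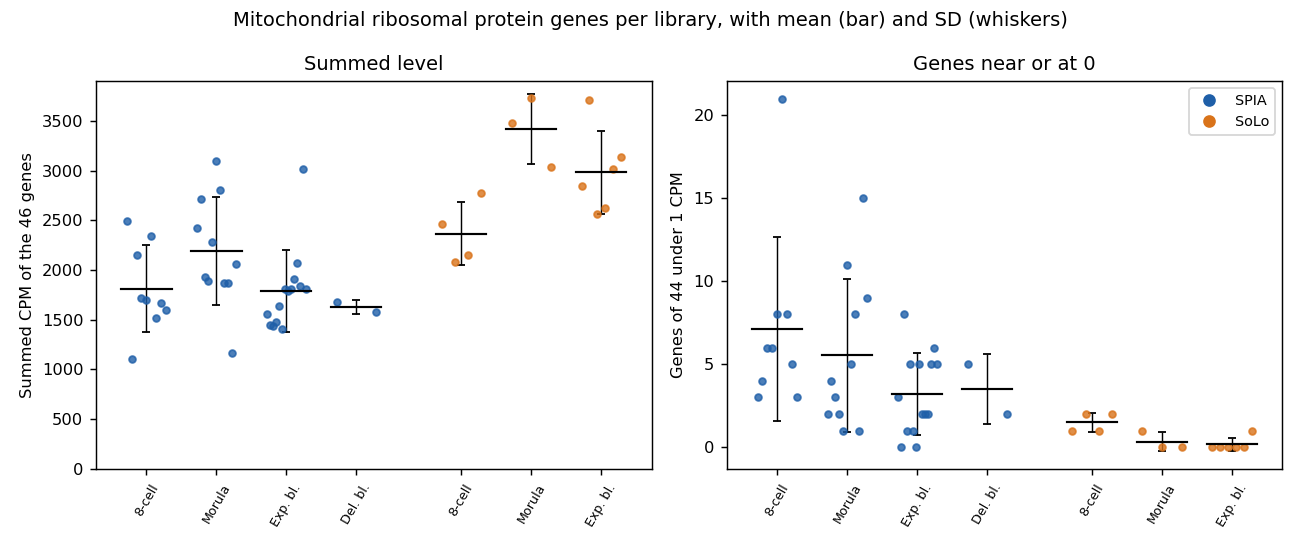
Summed level of the 46 members in CPM (left) and number of the 44 measurable members under 1 CPM (right) in each library, by stage and kit. Each point is a library and bars give the group's mean and SD. SPIA stages overlap in the sum, SoLo morulas lie above SoLo 8-cell embryos in these scaled values, though not in unscaled shares, and the 8-cell library 020816_09 has 21 members under 1 CPM.

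Of the 2 successive steps, that from the 8-cell stage to the morula held most of the calls among these genes, as it did among all genes. In either direction, 19.4% of all genes were called in SPIA and 16.7% in SoLo, against 14.7% and 1.14% in the next step. In SPIA, 6 of 44 members were higher in morulas and 0 lower, with an edgeR adjusted p under 0.05, where the background over all 15578 genes tested was 9.06% higher and 10.3% lower. In SoLo, 15 of 44 were higher and 2 lower, where the background over 14196 genes was 9.78% higher and 6.92% lower. The 6 SPIA calls are 4 large-subunit genes (MRPL9, MRPL10, MRPL39 and MRPL44) and 2 small-subunit genes (MRPS9 and MRPS15). Unadjusted p was under 0.05 for 17 members in SPIA and 25 in SoLo. The median log2 change of the members was 0.85 in SPIA, where 30 of 44 were positive and the median of all genes was -0.14. In SoLo it was 0.74, with 36 of 44 positive and a median of all genes of -0.06. With DESeq2 size factors the median of all genes moved to -0.18 in SPIA and -0.15 in SoLo.

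These counts responded unequally to single libraries. The SPIA count was 5 higher and 0 lower without 8-cell 020816_09, 8 higher and 0 lower without morula 022916_02, and 6 higher and 0 lower without both. Without the 3 cumulus-rich embryos it was 6 and 0 in SPIA and 11 higher and 3 lower in SoLo, where the single 8-cell library left is assumed to vary like the other groups. Leaving these 3 out removed the SPIA calls of MRPL10 (2.45, edgeR adjusted p = 0.0649) and MRPS15 (1.17, edgeR adjusted p = 0.0987) and added MRPL42 (2.30, edgeR adjusted p = 0.0300) and MRPL45 (4.29, edgeR adjusted p = 0.00478). In SoLo it removed 8 calls, those of MRPL10, MRPL11, MRPL35, MRPL38, MRPL39, MRPL47, MRPS23 and MRPS27, which all kept their sign, and added MRPL13, MRPL21, MRPL30, MRPL49 and MRPL52. Without morula 021016_02 the SoLo count fell to 10, and without 022916_01 it was 14 higher and 1 lower. When only SPIA libraries under 12 M counts were used, a smaller set, 3 of the 6 SPIA calls were kept.

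**Figure D2:**
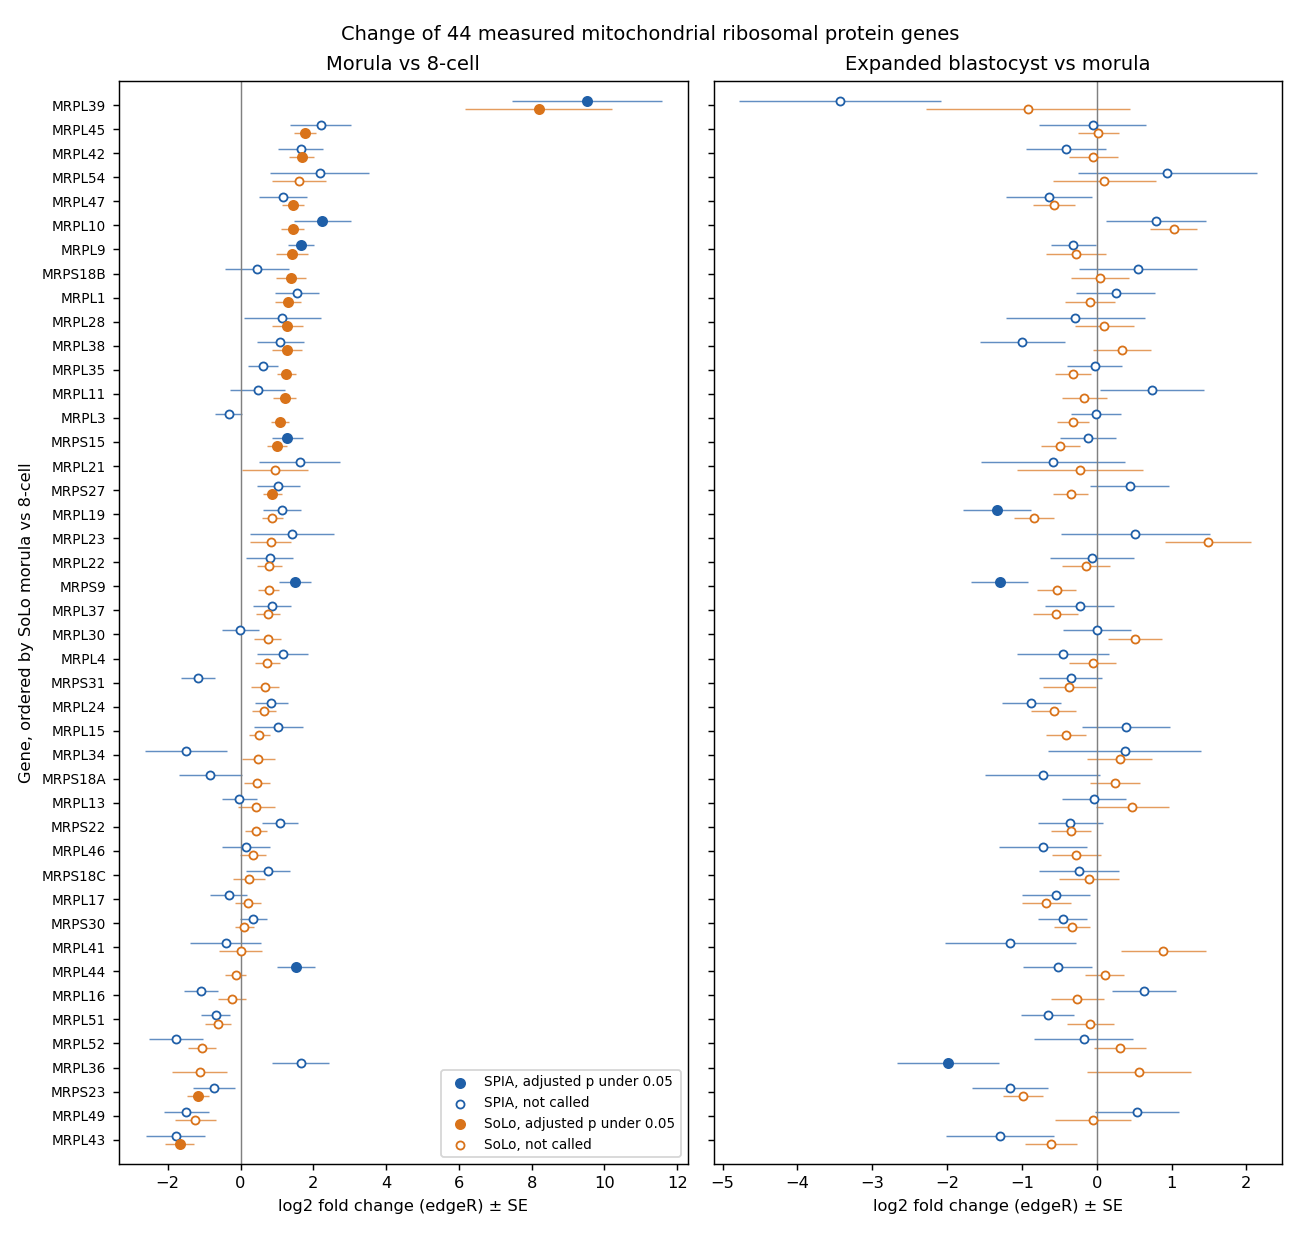
Log2 fold change with its standard error for each of the 44 members, for the step to the morula and the step from there to the expanded blastocyst, in SPIA and SoLo; filled points have an edgeR adjusted p under 0.05. Filled points lie mostly to the right of 0 for morula against 8-cell (6 SPIA, 17 SoLo), and 3 SPIA points to the left of 0 and no SoLo point are filled for expanded blastocyst against morula.

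Among large-subunit proteins with a bacterial counterpart, 2 of 21 rose in SPIA and 8 of 21 in SoLo, and none fell in either kit; the median log2 changes were 1.03 and 0.83. The SPIA share is close to the 9.06% of all genes that were higher. MRPL9 (ENSMMUG00000009094), the counterpart of bacterial L9, gave the smallest adjusted p of the SPIA members. In the SPIA 8-cell embryos its lowest, median and highest values were 29.8, 69.9 and 117 CPM, and in the morulas they were 13.6, 201 and 404 CPM. Of the 11 morulas, 10 lay above the highest 8-cell embryo, and the exception was 022916_02, the morula with 8-cell markers. The log2 change was 1.65 ± 0.35 (SE; edgeR adjusted p = 0.00147), and 1.68 without 020816_09 and 022916_02. In SoLo the 8-cell values were 50.6, 32.5, 23.9 and 142 CPM and the morula values 176, 154 and 165 CPM. The groups did not overlap, the 8-cell embryo 112815_02 lying closest to the morulas. The SoLo change was 1.41 ± 0.43 (edgeR adjusted p = 0.0363), and it missed the threshold without any of the 8-cell embryos 020816_06, 020816_07 and 020816_08 or of the morulas 021016_02, 021016_03 and 022916_01 (1.15 to 1.47, edgeR adjusted p 0.0598 to 0.0908). Without 8-cell 112815_02 the SoLo change was 2.21.

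MRPL10 and MRPL11 form the base of the stalk on which translation factors dock. MRPL10 (ENSMMUG00000021486) was at 0.265, 10.7 and 17.96 CPM (lowest, median, highest) in SPIA 8-cell embryos and at 0.0823, 27.7 and 205 CPM in morulas, 7 of 11 of which exceeded every 8-cell embryo. The lowest morula was again 022916_02. Its log2 change was 2.25 ± 0.79 (edgeR adjusted p = 0.0381), and the call was lost without any of 8-cell 011516_02, 020816_06, 020816_08 and 020816_10 or morula 020816_02, 020816_03 and 022916_01 (1.65 to 2.21, edgeR adjusted p 0.0506 to 0.116). In SoLo, 8-cell embryos had 35.3, 23.9, 25.0 and 29.0 CPM and morulas 51.0, 66.3 and 111 CPM, without overlap. That change was 1.43 ± 0.33 (edgeR adjusted p = 0.00712). MRPL11 was at 17.5, 23.9, 30.6 and 30.2 CPM in SoLo 8-cell embryos and at 43.8, 76.4 and 57.2 CPM in morulas. It passed in SoLo at 1.21 ± 0.33 (edgeR adjusted p = 0.0180), though not without morula 021016_03 (1.00, edgeR adjusted p = 0.0774). In SPIA its stage ranges covered each other, 0.264 to 15.1 CPM against 0.144 to 15.8 CPM, and its change was 0.47 ± 0.77 (edgeR adjusted p = 0.717).

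MRPL3 lies near the peptidyl transferase centre, MRPL1 belongs to the stalk through which tRNAs leave, and MRPL47 is the counterpart of bacterial L29. MRPL3 was at 83.6, 60.4, 79.2 and 109 CPM in SoLo 8-cell embryos and at 227, 150 and 151 CPM in SoLo morulas, a change of 1.09 ± 0.24 (edgeR adjusted p = 0.00502). In SPIA its median went from 70.4 to 62.2 CPM with a change of -0.32 ± 0.37 (edgeR adjusted p = 0.588). The 2 kits thus gave MRPL3 opposite signs. The interaction test described with the kits called no member. On simulated counts that test recovered 0% of log2 differences of 2. The simulation set the same spread for every gene and both kits, so that share need not hold for MRPL3. A lack of calls does not show that the kits agree, and whether they differ for MRPL3 is undecided. MRPL47 was at 38.8, 23.1, 29.1 and 25.9 CPM in SoLo 8-cell embryos and at 110.5, 66.0 and 62.0 CPM in morulas, a change of 1.44 ± 0.31 (edgeR adjusted p = 0.0047). MRPL1 was at 46.1, 17.1, 12.5 and 28.1 CPM in SoLo 8-cell embryos and at 64.3, 60.1 and 66.6 CPM in morulas. Its change of 1.30 ± 0.36 (edgeR adjusted p = 0.0199) lost the call without 8-cell 020816_07 (1.15, edgeR adjusted p = 0.0502). MRPL35 also rose in SoLo, by 1.26 ± 0.26 (edgeR adjusted p = 0.00373). MRPL28, the last shared large-subunit gene to pass there, rose from 5.21 to 17.5 CPM in the 8-cell embryos to 21.8 to 33.9 CPM in the morulas, by 1.29 ± 0.42 (edgeR adjusted p = 0.0465). MRPL28 missed the threshold without any of 8-cell 020816_06, 020816_08 and 112815_02 or morula 021016_02 and 022916_01 (1.07 to 1.34, edgeR adjusted p 0.0596 to 0.142). MRPL23, at the rim of the exit tunnel, did not pass in this step in either kit (SPIA 1.41 ± 1.15, edgeR adjusted p = 0.410; SoLo 0.83 ± 0.57, edgeR adjusted p = 0.339).

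Of the large-subunit proteins that only mitochondria have, 2 of 15 rose in SPIA, and in SoLo 4 rose and 1 fell. MRPL45 (ENSMMUG00000030213) anchors the ribosome to the inner membrane at the mouth of the exit tunnel. In SoLo 8-cell embryos it was at 23.8, 16.1, 24.7 and 33.5 CPM and in SoLo morulas at 109, 61.9 and 80.1 CPM. Every morula lay above every 8-cell embryo, and the change of 1.77 ± 0.30 had the smallest adjusted p of the SoLo members (edgeR adjusted p = 0.000789). In SPIA 8-cell embryos MRPL45 was at 0, 1.25 and 13.6 CPM (lowest, median, highest) and in morulas at 0.195, 13.0 and 22.1 CPM. The highest 8-cell embryo, 020816_07, overlapped the morulas, 3 of 11 of which lay above it. The SPIA change was 2.20 ± 0.85 and did not pass (edgeR adjusted p = 0.0586). It passed without 8-cell 020816_07 (3.47, edgeR adjusted p = 0.00634), without morula 021016_04 (2.34, edgeR adjusted p = 0.0411) and without morula 022916_02 (2.29, edgeR adjusted p = 0.0450), and DESeq2 called it (2.25, DESeq2 adjusted p = 0.00491).

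MRPL42 (ENSMMUG00000016805) was at 17.9, 8.91, 15.4 and 21.8 CPM in SoLo 8-cell embryos and at 49.2, 50.3 and 53.8 CPM in SoLo morulas. The morulas were close together and above all 8-cell embryos, and the change was 1.68 ± 0.35 (edgeR adjusted p = 0.00391). In SPIA it was at 0.365, 7.68 and 20.2 CPM (lowest, median, highest) and then at 5.06, 17.7 and 68.5 CPM, and its change of 1.65 did not pass with all libraries (edgeR adjusted p = 0.0549) but did without 020816_09 and 022916_02 (1.60, edgeR adjusted p = 0.0459). MRPL38 rose in SoLo from 10.6 to 49.0 CPM in 8-cell embryos to 69.5 to 113 CPM in morulas, by 1.27 ± 0.41 (edgeR adjusted p = 0.0447). That call was lost without any of 8-cell 020816_07, 020816_08 and 112815_02 or any of the morulas 021016_02, 021016_03 and 022916_01 (0.97 to 1.41, edgeR adjusted p 0.0565 to 0.132).

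MRPL39 (ENSMMUG00000017605), a relative of threonyl-tRNA synthetase, had 0 counts in 9 of 9 SPIA and 4 of 4 SoLo 8-cell embryos. In SoLo morulas it was at 0.734, 8.94 and 3.94 CPM, with a mean of 4.54 CPM, at least 54.7-fold higher than 3 counts over the 8-cell group would give (0.0829 CPM; edgeR adjusted p = 0.0139). In SPIA it was at 0 in 9 of 11 morulas, at 0.121 CPM in 020816_04 and at 99.7 CPM in 022416_03. The SPIA group mean of 9.07 CPM is at least 433-fold above the limit of 0.0210 CPM (edgeR adjusted p = 0.00197), but it rests on 1 embryo: without 022416_03 the mean was 0.0121 CPM, below that limit, and the call was lost (edgeR adjusted p = 0.125).

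MRPL44 has the fold of an RNase III enzyme. In SPIA it was at 1.10, 12.7 and 24.5 CPM (lowest, median, highest) in 8-cell embryos and at 11.1, 27.7 and 147 CPM in morulas, 7 of 11 of which lay above every 8-cell embryo. Its change was 1.52 ± 0.53 (edgeR adjusted p = 0.0375). The call was lost without any of 8-cell 011516_03, 020816_08, 020816_09 and 112815_01 or morula 022416_02 (1.01 to 1.51, edgeR adjusted p 0.0505 to 0.164). In SoLo, MRPL44 was at 59.6, 95.1, 55.5 and 102 CPM and then at 82.9, 68.5 and 61.4 CPM, which overlap, with a change of -0.14 ± 0.28 (edgeR adjusted p = 0.771).

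MRPL43 (ENSMMUG00000010679), another protein of the mitochondrial large subunit alone, went the other way. SoLo 8-cell embryos had 78.8, 109.7, 104 and 54.7 CPM and SoLo morulas 23.7, 41.6 and 16.4 CPM, so that all morulas lay below all 8-cell embryos. It fell by 1.67 ± 0.40 on the log2 scale (edgeR adjusted p = 0.00900). In SPIA it was at 1.19, 28.5 and 94.9 CPM (lowest, median, highest) at the 8-cell stage and at 0, 3.74 and 36.6 CPM in morulas, with overlap, and its change there did not pass.

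**Figure D3:**
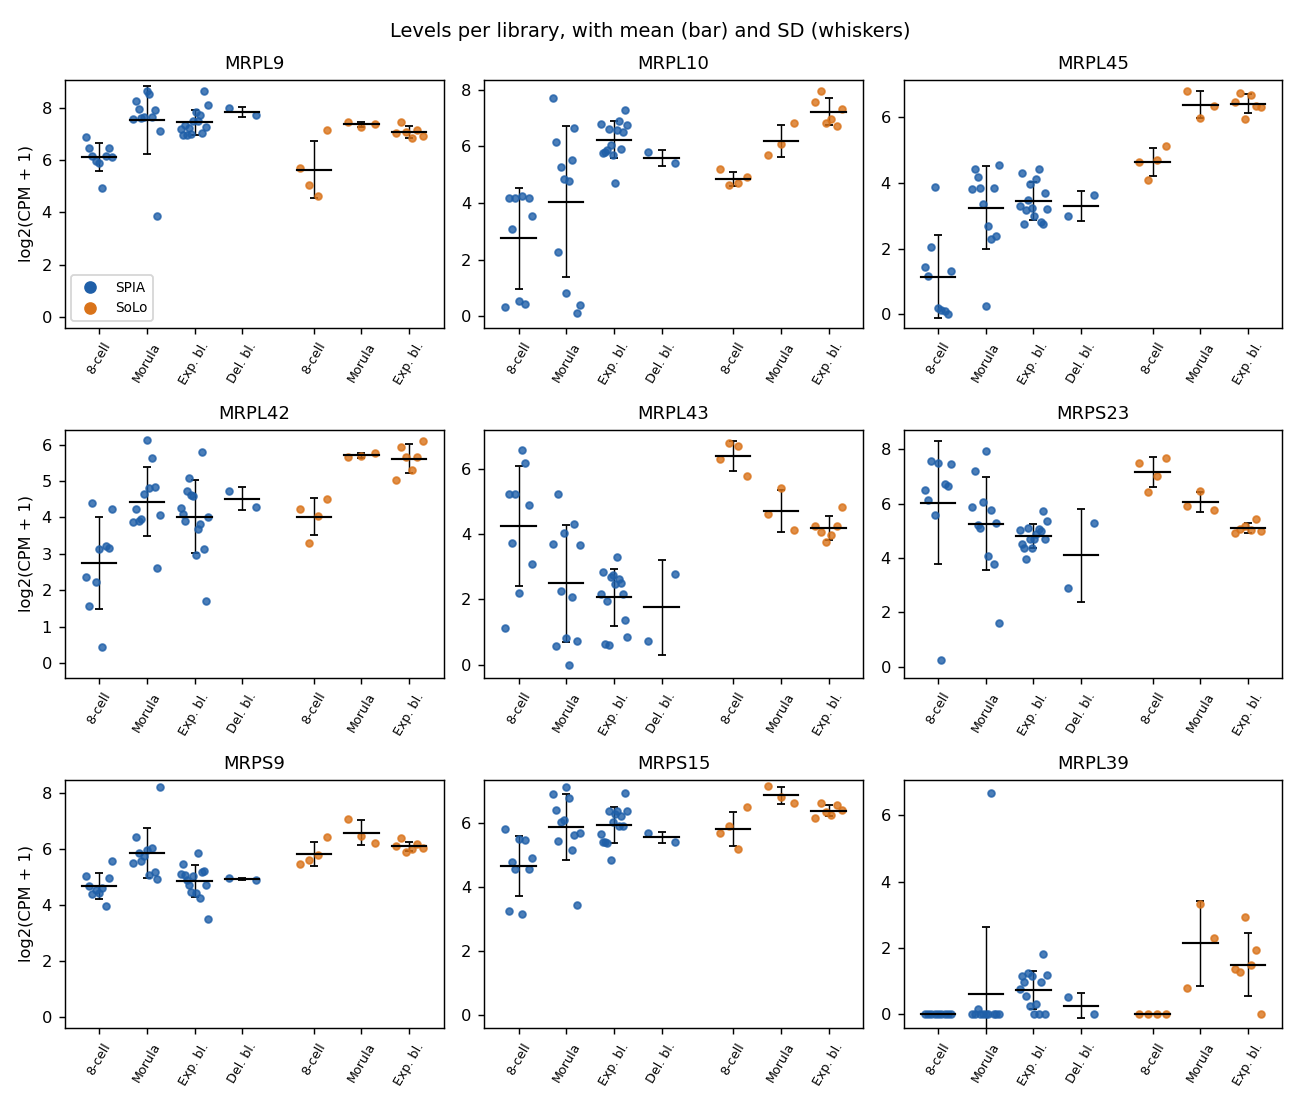
Level of 9 members in each library as log2(CPM + 1), by stage, with SPIA and SoLo side by side; points are libraries and bars give the group's mean and SD. MRPL9 and MRPL10 are higher after the 8-cell stage in both kits, and MRPL45 and MRPL42 are in SoLo. In SPIA, 3 (MRPL45) and 5 (MRPL42) of 11 morulas lie above every 8-cell embryo. MRPL43 and MRPS23 are lower in expanded blastocysts, and MRPL39 is at 0 in every 8-cell library.

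In the small subunit, the 3 tested proteins with a bacterial counterpart (MRPS9, MRPS15 and MRPS18C) gave 2 calls in SPIA and 1 in SoLo, all higher in morulas. MRPS15 (ENSMMUG00000020433) passed in both kits. In SPIA it was at 7.84, 26.6 and 54.8 CPM (lowest, median, highest) in 8-cell embryos and at 9.79, 64.0 and 140.2 CPM in morulas, 6 of 11 of which lay above every 8-cell embryo. Its SPIA change was 1.28 ± 0.42 (edgeR adjusted p = 0.0282). The call was lost without 8-cell 011516_03 (1.16, edgeR adjusted p = 0.0514), morula 020816_02 (1.18, edgeR adjusted p = 0.0509) or morula 021016_04 (1.13, edgeR adjusted p = 0.0550). In SoLo, 8-cell embryos had 50.3, 58.5, 35.9 and 88.9 CPM and morulas 141, 111 and 98.9 CPM, without overlap. MRPS15 rose there by 1.00 ± 0.28 (edgeR adjusted p = 0.0220), but not without morula 021016_02 (0.85, edgeR adjusted p = 0.0950). MRPS9 (ENSMMUG00000019682), in the head of the subunit, was at 14.5, 23.3 and 45.9 CPM in SPIA 8-cell embryos and at 29.0, 52.2 and 298 CPM in morulas. The highest value was that of morula 022916_03. The SPIA change was 1.501 ± 0.44 (edgeR adjusted p = 0.0150), and without that morula it was 0.97 (edgeR adjusted p = 0.0782). The other 5 small-subunit genes tested, all counted as without a bacterial counterpart, gave no SPIA call.

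In SoLo, 2 of these 5 rose and 1 fell. MRPS23 (ENSMMUG00000001913) was at 180.4, 85.0, 128 and 201 CPM in SoLo 8-cell embryos and at 59.1, 86.9 and 53.3 CPM in morulas. Of the 3 morulas, 2 lay below every 8-cell embryo. It fell by 1.16 ± 0.30 on the log2 scale (edgeR adjusted p = 0.0154), but missed the threshold without morula 021016_02 (-1.08, edgeR adjusted p = 0.0607) or 022916_01 (-1.02, edgeR adjusted p = 0.0598). MRPS27, a pentatricopeptide repeat protein, was at 48.1 to 98.6 CPM in SoLo 8-cell embryos and at 161, 147 and 129.9 CPM in morulas. It rose by 0.88 ± 0.25 (edgeR adjusted p = 0.0248), and the call was lost without morula 021016_02 (0.80, edgeR adjusted p = 0.0838) or 021016_03 (0.89, edgeR adjusted p = 0.0521). In SPIA, MRPS27 changed by 1.04 ± 0.60 (edgeR adjusted p = 0.222) and passed only when 8-cell 011516_02 was left out (1.68, edgeR adjusted p = 0.0419). MRPS22 did not pass in either kit (SPIA 1.09 ± 0.50, edgeR adjusted p = 0.113; SoLo 0.43 ± 0.29, edgeR adjusted p = 0.328).

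Mammals have 3 paralogs of bacterial ribosomal protein S18, each placed at a different site of the mitochondrial ribosome: MRPS18C in the S18 position, MRPS18B elsewhere in the small subunit and MRPS18A in the large subunit. Only MRPS18B passed, and only in SoLo. It was at 36.9, 14.1, 9.39 and 35.7 CPM in SoLo 8-cell embryos and at 58.0, 78.3 and 53.7 CPM in morulas, a rise of 1.40 ± 0.41 (edgeR adjusted p = 0.0288). That call was lost without any of 8-cell 020816_07 and 020816_08 or morula 021016_02 and 021016_03 (1.15 to 1.46, edgeR adjusted p 0.0527 to 0.0875). MRPS18A changed by -0.83 ± 0.86 in SPIA and 0.46 ± 0.36 in SoLo (edgeR adjusted p = 0.537 and 0.397). MRPS18C changed by 0.75 ± 0.61 and 0.24 ± 0.44 (edgeR adjusted p = 0.407 and 0.747), and MRPS18B in SPIA by 0.46 ± 0.87 (edgeR adjusted p = 0.761). The differences among the 3 paralogs were not tested.

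From the morula to the expanded blastocyst the members moved little. In SPIA, 0 were higher and 3 lower of 44 (background 4.71% higher and 9.95% lower), and the members' median log2 change of -0.30 was close to that of all genes, -0.29. With DESeq2 size factors both medians were -0.14 and no member passed. MRPS9 went from the morula values above to 10.2, 30.1 and 56.1 CPM (lowest, median, highest) in expanded blastocysts. It fell by 1.30 ± 0.38 on the log2 scale (edgeR adjusted p = 0.0183), and without morula 022916_03 the change was -0.76 (edgeR adjusted p = 0.151). MRPL36, the counterpart of the small bacterial protein L36, was at 0.123, 19.6 and 148 CPM in morulas and at 0.226, 8.33 and 18.3 CPM in expanded blastocysts, a fall of 1.99 ± 0.68 (edgeR adjusted p = 0.0396). MRPL19 was at 15.1, 29.8 and 106 CPM in morulas and at 8.18, 16.8 and 43.7 CPM in expanded blastocysts, a fall of 1.33 ± 0.46 (edgeR adjusted p = 0.0407).

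All 3 of these SPIA falls involve overlapping groups. MRPL36 lost its call without any of 12 libraries, morulas 020816_03, 022416_02 and 022916_03 and expanded blastocysts 111215_01, 111215_03, 111715_01, 111715_02, 111715_04, 112415_03, 112415_04, 112515_03 and 112515_04 (-2.004 to -1.41, edgeR adjusted p 0.0508 to 0.158). MRPL19 lost it without any of 14, morulas 020816_03, 022416_02, 022416_03 and 022916_03 and expanded blastocysts 111215_01, 111215_02, 111215_03, 111715_02, 111715_03, 111715_04, 112415_01, 112415_02, 112415_03 and 112515_03 (-1.35 to -1.13, edgeR adjusted p 0.0508 to 0.0962). No SPIA call was left without morula 022916_03, and 1 call was left without any of morulas 020816_03 and 022416_02 or expanded blastocysts 111215_01, 111215_03, 111715_02, 111715_04, 112415_03 and 112515_03. Without 8-cell 020816_09 and morula 022916_02 together, 5 members were lower: MRPS9, MRPL36 and MRPL19, and also MRPL51 (-0.78, edgeR adjusted p = 0.0436) and MRPS23 (-1.21, edgeR adjusted p = 0.0496).

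In SoLo no member passed between morula and expanded blastocyst (background 1.14%); unadjusted p was under 0.05 for 4 members, and DESeq2 called 3, 1 higher and 2 lower. The smallest p belonged to MRPS23 and MRPL10. MRPS23 was at 29.5, 32.1 and 41.7 CPM (lowest, median, highest) in the 6 SoLo expanded blastocysts, all below the 3 morulas, with a change of -0.98 ± 0.27 (edgeR adjusted p = 0.0770). MRPL10 was at 103, 142 and 247 CPM in the expanded blastocysts against 51.0, 66.3 and 111 CPM in the morulas, with a change of 1.03 ± 0.32 (edgeR adjusted p = 0.121). Without morula 022916_01 both passed (MRPS23 -1.12, edgeR adjusted p = 0.0233; MRPL10 1.41, edgeR adjusted p = 0.0167), and 4 members were called, MRPL10 and MRPL23 higher and MRPL19 and MRPS23 lower. That morula is the one with trophectoderm markers near the range of the expanded blastocysts, and the part of this in the values was not tested.

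Across the whole interval, from the 8-cell stage to the expanded blastocyst, the SPIA libraries gave 7 members higher and 5 lower of 44 (background 12.9% higher and 23.7% lower) and the SoLo libraries 15 higher and 3 lower (background 18.6% higher and 19.8% lower, 38.4% in either direction). This contrast is the sum of the 2 steps above and shares its 8-cell libraries with the first, so it is no separate evidence. The members' median log2 change was 0.52 in SPIA and 0.67 in SoLo, and that of all genes -0.43 and -0.05. With DESeq2 size factors the SPIA median of all genes was -0.31. Without 8-cell 020816_09 the SPIA count was 5 higher and 4 lower (MRPL45, MRPS27 and MRPS31 lost), without 020816_09 and 022916_02 it was 7 and 4, and without the 3 cumulus-rich embryos it was 6 and 4 in SPIA and 12 and 4 in SoLo.

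MRPL10 was among the genes that ended higher in both kits. In SPIA expanded blastocysts it was at 25.1, 77.4 and 153 CPM (lowest, median, highest), and 14 of 14 lay above the highest 8-cell embryo. Its change from the 8-cell stage was 3.04 ± 0.80 in SPIA (edgeR adjusted p = 0.00278) and 2.46 ± 0.31 in SoLo (edgeR adjusted p = 1.69e-05). MRPL9 was likewise above the highest 8-cell embryo in 14 of 14 SPIA expanded blastocysts, at 123, 157 and 397 CPM, with a change of 1.34 ± 0.34 (edgeR adjusted p = 0.00174). In SoLo it changed by 1.13 ± 0.38 (edgeR adjusted p = 0.0283), a call lost without any of 8-cell 020816_06, 020816_07 and 020816_08 or expanded 111215_x2 (0.86 to 1.04, edgeR adjusted p 0.0513 to 0.0878) and 1.93 without 8-cell 112815_02.

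MRPL1, of the tRNA exit stalk, was at 0.547, 5.80 and 10.2 CPM in SPIA 8-cell embryos and at 13.3, 18.8 and 27.1 CPM in expanded blastocysts, again 14 of 14 above the highest 8-cell embryo. It rose by 1.81 ± 0.59 in SPIA (edgeR adjusted p = 0.0140) and 1.21 ± 0.32 in SoLo (edgeR adjusted p = 0.00648). The membrane anchor MRPL45 stood at 5.66, 8.63 and 20.2 CPM in SPIA and at 60.7, 82.7 and 106 CPM in SoLo expanded blastocysts. Its change was 1.79 ± 0.27 in SoLo (edgeR adjusted p = 9.05e-05) and 2.15 ± 0.82 in SPIA (edgeR adjusted p = 0.0362). The SPIA call was lost without any of 8-cell 011516_03, 020816_08, 020816_09, 020816_10, 112815_01 and 112815_02 or expanded 111215_02 and 112415_02 (1.98 to 2.08, edgeR adjusted p 0.0515 to 0.0575), and without 8-cell 020816_07 the change was 3.42.

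MRPL39, at 0 in every 8-cell library, had 0.834 CPM in the median SPIA expanded blastocyst (range 0 to 2.51, 3 of 14 at 0) and 1.71 CPM in the median SoLo one (range 0 to 6.71). The means were at least 38.1-fold (SPIA, edgeR adjusted p = 0.00529) and at least 28.8-fold (SoLo, edgeR adjusted p = 0.00823) above the limit that 3 counts over the 8-cell group set. MRPL23 rose in SoLo from 18.2, 20.3, 4.53 and 10.8 CPM to 40.4, 75.4 and 80.3 CPM (lowest, median, highest), by 2.31 ± 0.53 (edgeR adjusted p = 0.00297). MRPS15 rose in SPIA by 1.16 ± 0.41 (edgeR adjusted p = 0.0216). MRPS27 rose in SPIA by 1.47 ± 0.58 (edgeR adjusted p = 0.0431), but not without any of 8-cell 011516_03, 020816_06, 020816_07, 020816_08, 020816_09, 020816_10 and 112815_01 or expanded 111215_02, 111715_02 and 112515_03 (0.92 to 1.501, edgeR adjusted p 0.05004 to 0.184). The remaining SoLo rises were those of MRPL3, MRPL11, MRPL28, MRPL30, MRPL35, MRPL38, MRPL42, MRPL47 and MRPS18B, between 0.77 and 1.63, of which MRPL47 was not called without 8-cell 020816_07 (0.77, edgeR adjusted p = 0.0551).

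The members called lower were all counted as without a bacterial counterpart. In SPIA they were 3 of 15 such large-subunit and 2 of 5 such small-subunit genes, and in SoLo 2 of 15 and 1 of 5. Of all genes, 23.7% were lower in SPIA and 19.8% in SoLo, and a difference between the classes was not tested. MRPL43 was at 0.509, 4.05 and 8.85 CPM (lowest, median, highest) in SPIA expanded blastocysts, and 6 of 9 8-cell embryos lay above the highest of them. In SoLo the expanded blastocysts, at 12.6, 16.9 and 27.6 CPM, were all below the 8-cell embryos. MRPL43 fell by 3.07 ± 0.78 in SPIA (edgeR adjusted p = 0.00188) and by 2.29 ± 0.32 in SoLo (edgeR adjusted p = 4.81e-05). MRPS23 was at 0.182, 100.3 and 187 CPM in SPIA 8-cell embryos, at 2.01, 38.3 and 244 CPM in morulas and at 14.6, 27.0 and 51.4 CPM in expanded blastocysts. Of the 9 8-cell embryos 7 lay above the highest expanded blastocyst, and the lowest was 020816_09. MRPS23 fell by 1.88 ± 0.53 in SPIA (edgeR adjusted p = 0.00504) and by 2.14 ± 0.25 in SoLo (edgeR adjusted p = 8.37e-06).

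MRPL51 went from 8.30, 212 and 381 CPM in SPIA 8-cell embryos to 32.7, 94.2 and 133 CPM in expanded blastocysts, a fall of 1.34 ± 0.37 (edgeR adjusted p = 0.00421). MRPL52 went from 5.02, 30.3 and 86.2 CPM to 0, 7.18 and 20.8 CPM, a fall of 1.95 ± 0.69 (edgeR adjusted p = 0.0234) that was not called without 8-cell 020816_06 (-1.59, edgeR adjusted p = 0.0782). The fall of MRPS31 rested on 1 library. Its SPIA 8-cell values were 40.0, 81.5 and 1506 CPM and its expanded values 47.04, 86.3 and 242 CPM. The change of -1.53 ± 0.44 (edgeR adjusted p = 0.00549) became -0.27 without 8-cell 020816_09 (edgeR adjusted p = 0.590). In SoLo, MRPL49 fell by 1.30 ± 0.46 (edgeR adjusted p = 0.0323), from 16.4, 12.6, 58.5 and 50.5 CPM to 9.47, 13.8 and 20.3 CPM. That call was lost without any of 8-cell 020816_08 and 112815_02 or expanded 111215_x1, 111715_01, 111715_02, 111715_04 and 112415_03 (-1.32 to -0.93, edgeR adjusted p 0.0517 to 0.144).

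The 2 delayed blastocysts were compared with the 14 expanded blastocysts in SPIA. No member was called in either direction by edgeR or DESeq2 and none had an unadjusted p under 0.05, nor did edgeR call any of the 15578 genes (background 0%), of which 196 had an unadjusted p under 0.05. The 2 members with the smallest p were MRPL4 and MRPL16, counterparts of bacterial L4 and L16. MRPL4 was at 10.9 and 26.3 CPM in delayed embryos against 7.87, 59.9 and 208 CPM (lowest, median, highest) in expanded ones, a change of -1.88 ± 1.36 (edgeR adjusted p = 1). MRPL16 was at 13.3 and 26.01 CPM against 15.7, 44.4 and 83.8 CPM, a change of -1.18 ± 0.88 (edgeR adjusted p = 1). The 2 delayed embryos share 1 title code.

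The kits were compared over 13 SPIA and 13 SoLo libraries made from shared embryos, with a stage term in the fit. Of 44 members, 10 were higher and 10 lower in SoLo (background 11.7% higher and 12.6% lower, 24.3% in either direction, of 13492 genes). The members' median log2 difference was 0.12, beside 0.06 for all genes. In the 11 embryos paired by title, and with both kits scaled together, 4 of the 44 members were higher in SoLo in all 11 pairs (MRPL1, MRPL34, MRPL37 and MRPL54), 4 in none (MRPL13, MRPL24, MRPL35 and MRPL51) and 27 in more pairs than not. MRPL34, the counterpart of bacterial L34, was at 0.638 to 7.19 CPM in SPIA and at 9.02 to 50.1 CPM in SoLo, higher in SoLo in 11 of 11. Its log2 difference was 3.15 ± 0.43 (edgeR adjusted p = 1.22e-06). MRPL54 (0 to 3.85 against 0.419 to 12.7 CPM) differed by 3.32 ± 0.75 (edgeR adjusted p = 0.00105), also higher in SoLo in 11 of 11. MRPL45 (0.229 to 20.3 against 12.9 to 87.8 CPM) differed by 2.05 ± 0.35 (edgeR adjusted p = 3.41e-05) and was higher in SoLo in 10 of 11, the exception being an 8-cell embryo.

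The largest differences in the other direction were those of MRPL51, MRPL24 and MRPL30. MRPL51 was at 103 to 602 CPM in SPIA and at 27.2 to 97.1 CPM in SoLo, lower in SoLo in every pair, with a difference of -2.22 ± 0.19 (edgeR adjusted p = 1.07e-10). MRPL24 differed by -1.77 ± 0.24 (edgeR adjusted p = 9.53e-07) and was higher in SoLo in 0 of 11 pairs. MRPL30 differed by -1.67 ± 0.25 (edgeR adjusted p = 5.15e-06) and was higher in 1 of 11. The other members called higher in SoLo were MRPL1, MRPL11, MRPL37, MRPL43, MRPL44, MRPL47 and MRPS30, and those called lower were MRPL4, MRPL9, MRPL13, MRPL35, MRPL36, MRPL49 and MRPS31. MRPS31 is the only small-subunit protein among these 20, since MRPS30 sits in the large subunit. The kit calls of MRPL36 without embryo 021016_02 (edgeR adjusted p = 0.0502), MRPL49 without 021016_03 (edgeR adjusted p = 0.0551) and MRPS30 without 112815_02 (edgeR adjusted p = 0.0515) were lost. That of MRPL47 (1.01) was lost without any of expanded 111715_01, 111715_04 and 112415_03 or morula 021016_02, 021016_03 and 022916_01 (0.95 to 1.02, edgeR adjusted p 0.0525 to 0.0707), and was 1.52 without 8-cell 020816_06. With the embryo as a block over the 11 pairs, 9 members were higher and 9 lower. Of the 20 calls, 17 were kept. Those of MRPL1 (1.05, edgeR adjusted p = 0.0511), MRPL36 (-1.51, edgeR adjusted p = 0.0644) and MRPS30 (0.46, edgeR adjusted p = 0.0920) were lost, and MRPS18B was gained (1.28, edgeR adjusted p = 0.0187).

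**Figure D4:**
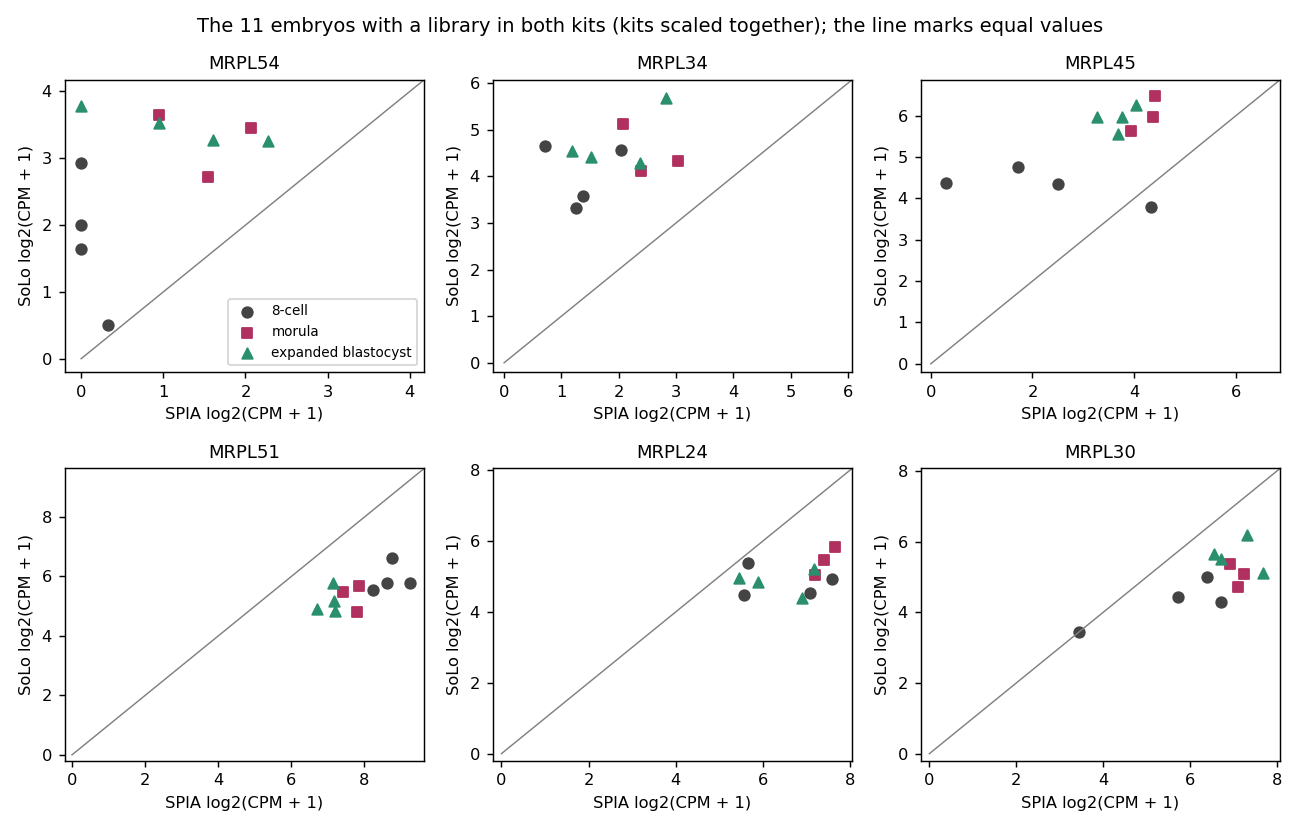
SoLo against SPIA level as log2(CPM + 1) for 6 members in the 11 embryos paired by title, with both kits scaled together and the line of equal values; colours and symbols give the stage. MRPL54 and MRPL34 lie above the line in 11 of 11 embryos and MRPL45 in 10 of 11, MRPL51 and MRPL24 lie below it in every embryo, and MRPL30 lies above it in 1 of 11.

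Libraries of a stage differed less from each other in SoLo, though both kits drew on the same embryos. Over the 44 members and the libraries of the kit comparison, scaled together, the median SD of log2(CPM + 1) between 8-cell embryos was 1.06 in SPIA and 0.495 in SoLo, and 32 of 44 members had the smaller SD in SoLo. Between morulas it was 0.535 and 0.414 (26 of 44), and between expanded blastocysts 0.532 and 0.338 (37 of 44). The interaction of kit with the change from 8-cell to morula was called for no member by edgeR or DESeq2 (background 0%), and 4 members had an unadjusted p under 0.05. Its smallest p belonged to MRPS18A, with a difference in log2 change of 2.32 ± 0.94 (p = 0.0196 and adjusted p = 0.422 by edgeR), and to MRPL35, with 1.01 ± 0.46 (p = 0.0355 and adjusted p = 0.481 by edgeR). On simulated counts this interaction test recovered 0% of log2 differences of 2 and 8.33% of differences of 4. The simulation set the same spread for every gene and both kits and did not take it from these data. So simulated, SoLo morula against 8-cell recovered 3.06% of log2 changes of 2, though smaller changes were called in the data. These shares therefore do not measure the power on these data. The lack of calls by itself does not show that the kits agree. Members called in the same direction in both kits were MRPL9, MRPL10, MRPL39 and MRPS15 for morula against 8-cell, 66.7% of the SPIA and 23.5% of the SoLo calls. The SPIA call of MRPL39 rested on 1 embryo, 022416_03. Leaving out 1 library at a time kept the SoLo call of MRPL9 in 1 of 7 fits and the SPIA call of MRPL10 in 13 of 20. In the other kit the calls of MRPL39, MRPL9 and MRPL10 were kept in every such fit. For expanded blastocyst against 8-cell they were MRPL1, MRPL9, MRPL10, MRPL39, MRPL43, MRPL45 and MRPS23, 58.3% and 38.9% of the calls.

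The SoLo calls could be set beside SPIA embryos that gave no SoLo library (5 at the 8-cell stage, 7 morulas, 8 expanded). For morula against 8-cell, 14 of the 17 SoLo members had the same sign in these embryos (82.4%, beside 82.9% for all SoLo-called genes). The exceptions were MRPL3, MRPL11 and MRPS23. Only 1 of the 17 was also called in these embryos, beside 229 of 2296 SoLo-called genes. For expanded blastocyst against 8-cell, 16 of 18 had the same sign (88.9%, beside 87.7%), with MRPL3 and MRPL30 as exceptions. Only 2 of the 18 were also called there, beside 1604 of 5203 SoLo-called genes. Within title code 020816, with 5 8-cell embryos and 3 morulas, 42 members could be tested. Of these 31 had a positive change, and the share of all genes with a positive change within the code is not given. The 5 tested members called in all SPIA libraries kept their sign, but none was called. Their calls drew on these same libraries too, so the kept signs are no separate check.

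Other genes that the mitochondrial ribosome needs were examined for the step from 8-cell to morula as well. Their counts stand beside the same background, 9.06% of all genes higher and 10.3% lower in SPIA and 9.78% and 6.92% in SoLo. The counts of 1 or 2 genes for assembly factors, for the SPIA tRNA synthetases and for import are shares close to it. So are the 1 regulator higher in each kit and the 1 lower in SoLo. The same holds for the 1 gene of mitochondrial DNA and transcription higher in SPIA. Among ribosomal proteins under other names, 1 of 3 rose in each kit and none fell. It was PTCD3, a pentatricopeptide repeat protein of the small subunit, which rose by 1.61 ± 0.54 in SPIA (edgeR adjusted p = 0.0286) and by 1.23 ± 0.23 in SoLo (edgeR adjusted p = 0.00171). Among 19 ribosome assembly factors, 2 rose in each kit and none fell. They were TFB1M and YBEY in SPIA (2.22 and 3.80), both of which modify or process ribosomal RNA, and ERAL1, an rRNA chaperone, and FASTKD2 in SoLo (1.27 and 0.83).

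Of 14 translation factors and mRNA-binding proteins, 5 rose and none fell in SPIA, and 4 rose and 1 fell in SoLo. LRPPRC, which with SLIRP stabilises mitochondrial mRNAs, was at 18.1, 144 and 279 CPM (lowest, median, highest) in SPIA 8-cell embryos and at 116, 393 and 1164 CPM in morulas. In SoLo it was at 505 to 739 CPM and then at 1375 to 1796 CPM, without overlap. It rose by 1.47 ± 0.34 in SPIA (edgeR adjusted p = 0.00308) and by 1.23 ± 0.19 in SoLo. SLIRP rose by 1.61 and 1.35, and the initiation factor MTIF2 by 1.63 and 0.94. MTRF1 (3.06) and GUF1 (1.42) passed in SPIA alone of the kits, and GFM1, an elongation factor, rose in SoLo by 1.25 while its paralog GFM2, which acts in recycling, fell by 1.18.

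Of 20 tRNA synthetases and amidotransferase subunits, none rose and 2 fell in SPIA (HARS2 -1.92, RARS2 -1.44), and 3 rose (VARS2 1.88, QRSL1 1.58, IARS2 0.87) and 1 fell (GATC -0.88) in SoLo. Among 9 genes of mitochondrial DNA and transcription, PNPT1, an RNA-degrading enzyme, rose in both kits (1.94 and 1.67), and in SoLo the topoisomerase TOP1MT (2.98) and TFAM, which packages mitochondrial DNA (1.49), rose too. Of 14 import genes, the outer membrane receptor TOMM70 rose in both kits (1.09 and 1.00) and the import motor HSPA9 in SoLo (1.49).

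The 10 regulators of nuclear genes for mitochondria gave 1 rise and 3 falls in SPIA and 1 and 1 in SoLo. ESRRA, a nuclear receptor, was at 0 counts in 7 of 9 SPIA 8-cell embryos and reached 12.3 CPM in morulas; its fitted changes were 5.99 ± 1.54 in SPIA (edgeR adjusted p = 0.00620) and 6.50 ± 1.03 in SoLo. PPRC1, a coactivator of this system, went from 256, 422 and 1567 CPM (lowest, median, highest) in SPIA 8-cell embryos to 73.7, 138 and 319 CPM in morulas, and in SoLo from 286 to 539 CPM to 95.4 to 172 CPM. PPRC1 fell by 1.74 ± 0.33 in SPIA and by 1.62 ± 0.29 in SoLo (edgeR adjusted p = 0.00117). NRF1 (-2.76) and GABPB2 (-3.81) fell in SPIA. In the next step, morula to expanded blastocyst, METTL15, an rRNA methyltransferase (2.82 in SPIA), and TOMM70 (-1.06 in SoLo) were the only genes called over all 7 lists.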

How the data were processed

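The authors deposited one table of raw read counts per gene for embryos of 4 stages, and totals differ between libraries as raw counts do. Alignment with HISAT2 and the use of DESeq2 are listed per the submitters' processing notes, without versions. For the counting tool, genome build, annotation and strand setting, the sources used here give nothing, and coordinates are left out. Reads that paralogs (MRPS18A, MRPS18B and MRPS18C) or overlapping genes share may have been split or dropped by the counting. Of 52 columns, 49 were matched to samples by title, 2 of these (111215_x1 and 111215_x2) only to their group, and 3 columns that match no title were not used. No sequences were used.

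Gene symbols came from the supplied name list, where 70 identifiers match the rule. The members and gene lists were chosen with earlier results of these data known. Counts were tested with edgeR 4.0.16 (R 4.3.3; TMM, filterByExpr, robust quasi-likelihood), with 1 fit per kit over all its stages and Benjamini-Hochberg adjustment over all genes; genes with an adjusted p under 0.05 were called. CPM used TMM factors set within each kit, except that values comparing the kits were scaled over the 26 libraries of that comparison together. Kits were compared with stage and kit as terms, and the interaction with both and their product. Alternatives were DESeq2 1.42.0, its size factors in edgeR, no filter beyond 1 count, the compared groups alone, limma 3.58.1 voom with a random effect of title code, leaving out each library, subsets of libraries, and the embryo as replicate block. The fits were tested on simulated data, with the same spread set for every gene and library and not estimated from these data. Leaving out 8-cell 020816_09 with morula 022916_02, and fitting the paired embryos without the block, were added after seeing the data.

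Members with values were, in each contrast, up to 4 per direction by size among those called (in the kit comparison 3), those called in both kits, those with a known separate role, and those failing the filter; MRPL28, MRPL35, MRPL36, MRPL38, MRPL51 and MRPL52 were partly described beyond this after their values were seen. Embryos share replicate names between kits because 1 embryo gave both libraries. Over 11 such pairs the deviations from the stage mean correlated with a median of 0.21, above 0.1 in 10 pairs, and in 10 pairs best with the embryo's own partner; expanded blastocyst 111715_02 was the exception (-0.00833). The labels describe separate embryos but not which shared parents, and p-values measure the spread between these samples. Figures used a pseudocount of 1 CPM.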

Additional observations from a re-analysis of the deposited data

Results flagged for a closer look

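Values were screened for a library far from the rest of its group of 4 to 10, by the gap to its nearest neighbour against the group's range (Dixon's test). Of 103 values tested, 11 passed, where chance alone gives about 5%. The SPIA 8-cell library 020816_09 accounts for 6 of them, all low: MRPL24 at 0.638 CPM (group median 44.4), MRPL35 at 1.28 CPM (71.7), MRPL51 at 8.30 CPM (212), MRPS18C at 0 CPM (20.0), MRPS22 at 0.274 CPM (42.7) and MRPS23 at 0.182 CPM (100.3). In the same group MRPL16 was low in 112815_02, at 17.7 CPM (65.4), and MRPL54 was high in 011516_03, at 1.10 CPM with a median of 0. In the SoLo 8-cell libraries MRPL16 was high in 020816_06, at 164 CPM (88.4). In the SoLo expanded blastocysts 111215_x2 was high for MRPL4, at 102 CPM (49.0), and MRPS27, at 152 CPM (107).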

How the results depend on the processing

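Counts of called members that differed by more than 1.5 times from those reported were, for SPIA morula against 8-cell (6), 12 with DESeq2, 1 with the 2 groups alone, 11 with voom and a random effect of title code (2 of the 6 still called), 1 with embryos that gave no SoLo library and 0 within title code 020816. For SPIA expanded blastocyst against morula (3) they were 0 with DESeq2 size factors, 0 in embryos without a SoLo library and 5 without 8-cell 020816_09 and morula 022916_02. For SPIA expanded blastocyst against 8-cell (12) they were 20 with voom and 3 in embryos without a SoLo library. For SoLo morula against 8-cell (17) the groups alone gave 7, and for SoLo expanded blastocyst against morula (0) DESeq2 gave 3 and the groups alone 1. The cause was not tested; the subsets hold fewer samples. Leaving out each library in turn gave 4 to 9, 0 to 3, 9 to 13 and 0 to 0 members in the SPIA contrasts (delayed against expanded last), 10 to 17, 0 to 4 and 16 to 20 in SoLo, 18 to 24 between kits and 0 to 0 for the interaction. The kit comparison with the embryo as a replicate block gave 18 members against 20, and 16 for the same pairs without the block; the block changed no count by over 1.5 times. Directions that reversed, none of them called, were those of MRPL11 (SPIA morula against 8-cell, -0.0069 in embryos without a SoLo library), MRPL23 (SoLo, -0.44 without morula 022916_01), MRPL44 (SoLo, 0.36 without the cumulus-rich embryos and 0.015 without 8-cell 112815_02), MRPS18A (SPIA, 0.13 within title code 020816 and 0.0098 without 8-cell 020816_08), MRPS18B (SPIA, -0.44 with voom) and MRPS18C (SoLo, -0.14 without morula 021016_02). Beyond leave-one-out fits, 383 of the values recomputed for named members kept direction and side of the threshold, 56 lost the call, 8 gained it and 4 reversed. Over the 9 SPIA 8-cell libraries, MRPL39 had 0 counts and MRPL54 31 counts in total.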
